A study of Arabidopsis thaliana with 4 samples.

Results

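The genes described are 34 Arabidopsis thaliana loci whose products make ribosomes, most of them in the nucleolus, out of 31346 loci in the deposited table. They were chosen by locus code from what their products are known to do, and the rule itself uses no measured value. They comprise 2 nucleolins, 6 core proteins of box C/D small nucleolar RNA particles, 1 of box H/ACA particles, 12 factors of the small ribosomal subunit, 10 of the large subunit, 2 GTPases of cytoplasmic maturation and the helicase MTR4. All 34 passed the filter on low counts and were tested.

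Poly(A) RNA of whole seedlings, 6 days old, was sequenced in 2 libraries of a line that constitutively overexpresses CLPD in the WT background (ClpD-OE, line #5) and in 2 WT libraries. CLPD encodes a chaperone of the Clp protease system of the chloroplast, and the study used the line because the unprocessed precursor of that protein builds up in it. Both ClpD-OE libraries carry the name of 1 line, so the effect of the overexpressed gene and other traits of the line cannot be told apart. The labels name no promoter for the transgene and do not say whether the replicates were separate cultures, and p-values therefore reflect the spread of these libraries alone, a spread that may be technical. The libraries held between 20800842 and 23294451 counts, and CLPD (AT5G51070) had 41739 and 46316 counts in ClpD-OE and 2849 and 3037 in WT, a log2 fold change of 3.57 (SE 0.0971, edgeR quasi-likelihood adjusted p = 0.00283).

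Ribosomes are assembled around ribosomal RNA that RNA polymerase I transcribes in the nucleolus. Small nucleolar RNA particles modify the long precursor RNA, and processing factors, helicases and GTPases cut and fold it into the small and large subunits, which are finished in the cytoplasm. In plants these genes are most active in growing tissue, and mutants in many of them have slow growth, pointed leaves or arrested gametophytes. Many promoters of ribosomal protein and ribosome biogenesis genes in Arabidopsis carry a telo box (AAACCCTA) and site II elements (TGGGCC or TGGGCT), short motifs known from genes of growing cells.

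The promoters below show how these motifs are placed in members with large and small differences between the groups. Each is the 150 bases before the annotated gene start, 5′ to 3′ on the strand of the gene, from the RefSeq genome TAIR10.1. Capitals mark a telo box or a site II element on either strand, so that a site II element on the opposite strand reads GGCCCA or AGCCCA. BOP1 (AT2G40360) had the largest fold change of the 34 and NOP56 (AT1G56110) the smallest p-value in edgeR. AT5G27120 is annotated as a NOP56-like protein and is taken here as a copy of the NOP58 pair. NUG2 (AT1G52980) had the most site II elements, and MTR4 (AT1G59760) had the smallest fold change.
BOP1, chr2:16856772-16856921, minus strand: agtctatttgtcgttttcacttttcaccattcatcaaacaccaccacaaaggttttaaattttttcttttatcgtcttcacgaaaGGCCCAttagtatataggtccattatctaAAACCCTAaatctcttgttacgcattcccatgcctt
NOP56, chr1:20986953-20987102, minus strand: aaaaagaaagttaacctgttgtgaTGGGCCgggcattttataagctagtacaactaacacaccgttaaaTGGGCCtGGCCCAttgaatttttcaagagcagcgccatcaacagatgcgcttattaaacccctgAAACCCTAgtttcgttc
AT5G27120, chr5:9540711-9540860, plus strand: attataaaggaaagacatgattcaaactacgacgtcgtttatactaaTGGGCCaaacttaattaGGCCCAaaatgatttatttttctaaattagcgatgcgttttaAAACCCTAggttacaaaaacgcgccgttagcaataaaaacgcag
NUG2, chr1:19737255-19737404, plus strand: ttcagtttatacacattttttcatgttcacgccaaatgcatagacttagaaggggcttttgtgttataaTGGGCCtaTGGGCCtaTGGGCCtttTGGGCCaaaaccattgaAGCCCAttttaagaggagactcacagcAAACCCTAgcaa
MTR4, chr1:21990287-21990436, minus strand: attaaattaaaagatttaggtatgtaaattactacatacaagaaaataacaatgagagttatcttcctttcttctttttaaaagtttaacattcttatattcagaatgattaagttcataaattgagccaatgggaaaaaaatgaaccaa
In the printed stretches of NOP56, AT5G27120, BOP1 and NUG2 the site II elements lie farther from the gene start than the telo box does. The printed stretch of MTR4 holds neither motif, but a site II element begins 29 bases after its gene start.

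Both motifs were searched on either strand from 250 bases before to 50 bases after the gene start in all 27443 protein-coding genes. A telo box was found in 18 of the 34 members, or 52.9%, against 6.22% of all protein-coding genes. A site II element was found in 24 members, or 70.6%, against 21.7% of all genes. Both motifs occurred in 15 members, or 44.1%, against 2.2%, and 7 members had neither. The log2 fold changes of those 7, ClpD-OE over WT, ran from 0.374 to 0.875, and those of the 15 with both from 0.213 to 1.02. The telo boxes clustered at the gene start, with 22 matches at a median position of 3 bases after it. The 51 site II matches had a median position of -65, and 45 of them began before the start. TGGGCC overlaps its own reverse complement in TGGGCCCA, which occurs in WDR12, so that stretch counts as 2 matches. In the 250 bases before the start alone, the share with a telo box was 17.6% of members against 4.49% of all genes, and the share with a site II element was 61.8% against 19.2%. These are matches of letters, and binding was not measured.

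**Figure D1:**
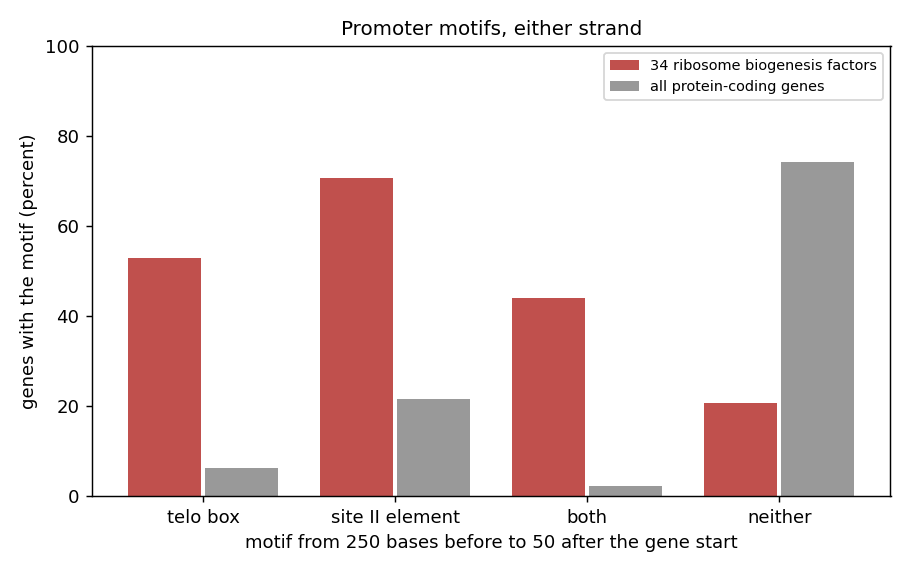
Share of genes, in percent, with a telo box, a site II element, both or neither from 250 bases before to 50 after the gene start; red bars are the 34 ribosome biogenesis factors and grey bars all 27443 protein-coding genes. Both motifs together were found in 44.1% of the factors and in 2.2% of all genes.

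All 34 genes were higher in ClpD-OE, in the sense that both ClpD-OE libraries lay above both WT libraries. Over all tested genes, 30.5% had that arrangement. Their median fold change was 1.62 (log2 0.69), against a median log2 fold change of 0.001 over the 18940 tested genes, and single genes ranged from 1.15-fold (MTR4) to 2.02-fold (BOP1). A gene was called when its p from the quasi-likelihood test of edgeR, Benjamini-Hochberg adjusted over all tested genes, was under 0.05. Of the 34, 19 were called higher, where 4.29% of all tested genes were, and 0 were called lower, where 3.91% were. DESeq2 called 20 members higher, where it called 5.39% of all tested genes higher, and 0 lower, where it called 6.43%. At an unadjusted p under 0.05 in edgeR, 31 members were higher, where 14.2% of all tested genes were. The 34 genes together took 0.176% and 0.17% of all counts in the ClpD-OE libraries, against 0.0863% and 0.1% in the WT libraries, with exact binomial intervals of 0.174 to 0.178% and 0.169 to 0.172% in ClpD-OE, and of 0.0851 to 0.0876% and 0.0987 to 0.101% in WT. These shares are of unscaled library totals, and on that scale the median log2 fold change of all tested genes was 0.22. NUC1 alone held 10520 of the 40973 member counts in ClpD-OE replicate 1 and 4036 of 17961 in WT replicate 1. In whole seedlings a larger number of cells with high levels and more RNA per cell cannot be told apart.

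**Figure D2:**
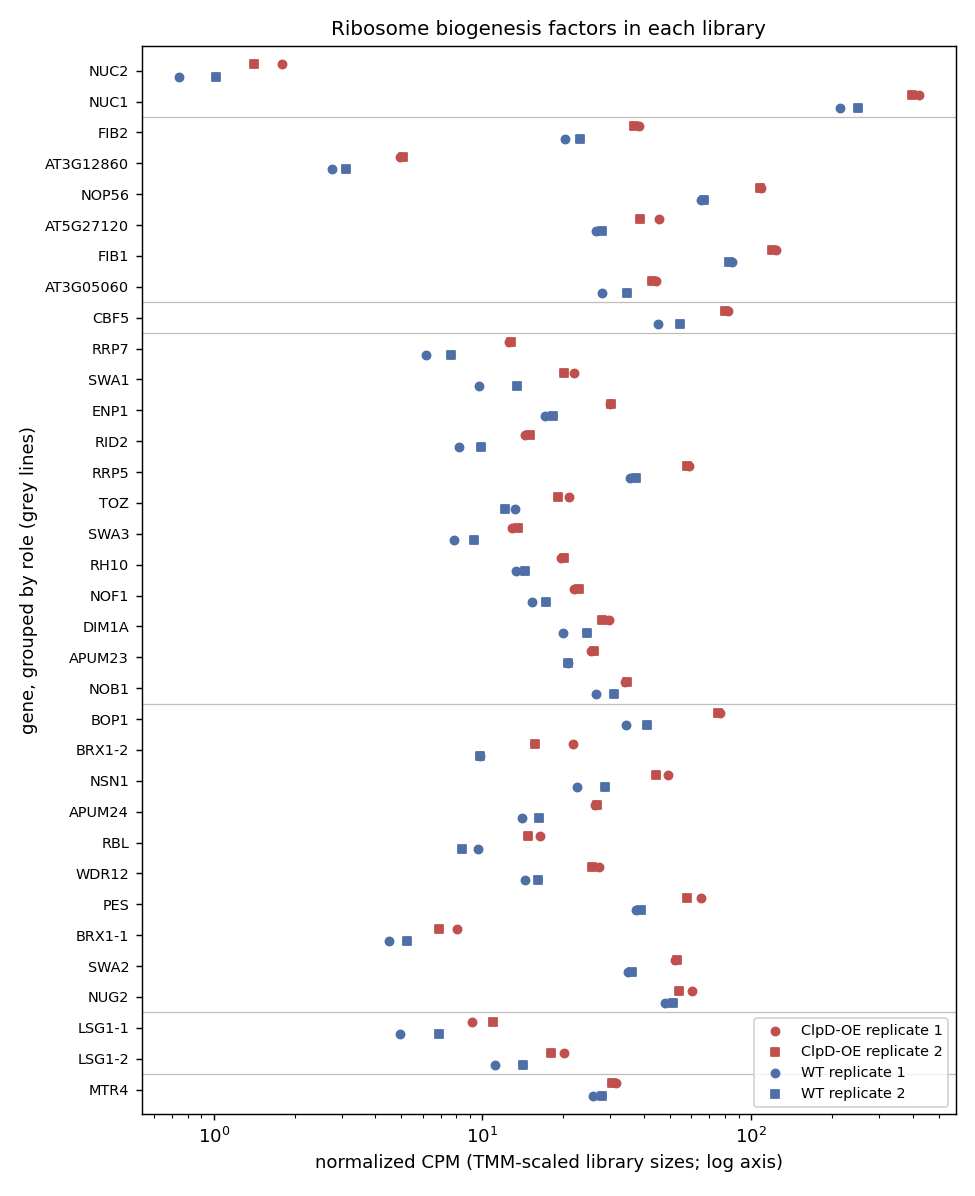
Normalized CPM (log axis) of each of the 34 genes in the 2 ClpD-OE libraries (red, upper points of a row) and the 2 WT libraries (blue, lower points); circles are replicate 1, squares replicate 2, and grey lines separate the roles. In all 34 rows both red points lie to the right of both blue points.

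In FPKM, a level per length of transcript, the genes spanned a wide range. NUC1 was the highest at 212 ± 5.79 FPKM in ClpD-OE and 103 ± 14 FPKM in WT (mean ± SD, n = 2 each). NUC2 was the lowest at 0.832 ± 0.133 FPKM in ClpD-OE and 0.389 ± 0.0983 FPKM in WT. The median over the members was 14.3 FPKM in ClpD-OE and 7.41 FPKM in WT. The order of the genes was nearly the same in both groups (Spearman's rho 0.971 over the 34 genes, which share the libraries), and the log2 fold change had little relation to the WT level (rho -0.168). Both are descriptions across genes, which are not independent replicates.

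Nucleolin binds ribosomal DNA and its transcripts in the nucleolus and is required for normal nucleolar structure. NUC1 (AT1G48920), the main nucleolin gene, had 421 and 399 normalized CPM in the ClpD-OE libraries and 214 and 250 in the WT libraries. The groups were far apart, and NUC1 was 1.77-fold higher, with a log2 fold change of 0.82 (SE 0.103, edgeR adjusted p = 0.0239). NUC2 (AT3G18610), its paralog, had 45 and 35 counts in ClpD-OE and 14 and 21 in WT. Its log2 fold change was 0.86 with an SE of 0.338, and it was not called (edgeR adjusted p = 0.176). The coding sequences of the pair agree at 74.0% of aligned bases, and NUC1 made up at least 99.57% of the pair's FPKM in every library.

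Box C/D particles carry 2′-O-methylation to ribosomal RNA, with fibrillarin as the methyltransferase and NOP56 and NOP58 as the scaffold. Of the 6 members of this kind 4 were called higher, with a median log2 fold change of 0.67. FIB1 (AT5G52470) had 124 and 120 normalized CPM in ClpD-OE and 85.0 and 82.9 in WT, and was 1.45-fold higher (0.54 on the log2 scale, SE 0.0777, edgeR adjusted p = 0.0274). FIB2 (AT4G25630) had 38.2 and 36.7 CPM in ClpD-OE and 20.4 and 23.1 in WT, and was 1.72-fold higher (0.78 on the log2 scale, SE 0.107, edgeR adjusted p = 0.0261). In both fibrillarin genes the replicates of a group lay close together compared with the gap between the groups. FIB1 made up 75.9% and 76.0% of the pair's FPKM in ClpD-OE, against 80.2% and 77.7% in WT, and the coding sequences agree at 84.8% of aligned bases.

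NOP56 had 109 and 108 CPM in ClpD-OE and 65.0 and 67.0 in WT. The replicates differed little, and its 1.64-fold difference had the smallest edgeR adjusted p of the 34 genes (log2 fold change 0.72, SE 0.0774, edgeR adjusted p = 0.0193). In DESeq2 the adjusted p of NOP56 was 1.94e-05, and those of BOP1 and NUC1 were smaller (2.96e-07 and 4.41e-06). Its paralog AT3G12860, annotated NOP56-like, was far lower at 4.96 and 5.09 CPM in ClpD-OE and 2.76 and 3.10 in WT. It had a similar log2 fold change of 0.78 and an SE of 0.18, and was not called (edgeR adjusted p = 0.0634). AT5G27120 had 45.6 and 38.7 CPM in ClpD-OE and 26.6 and 27.9 in WT, and was 1.55-fold higher (log2 fold change 0.63, edgeR adjusted p = 0.0403). AT3G05060, annotated NOP58-like, had 44.5 and 42.9 CPM in ClpD-OE and 28.0 and 34.7 in WT, with a log2 fold change of 0.48 that was not called (edgeR adjusted p = 0.0847). The coding sequences of NOP56 and AT3G12860 agree at 83.5% of aligned bases. Those of AT5G27120 and AT3G05060, taken as the NOP58 pair, agree at 82.8%. CBF5 (AT3G57150), the pseudouridine synthase of box H/ACA particles, had 82.2 and 80.1 CPM in ClpD-OE and 45.3 and 54.6 in WT, and was 1.62-fold higher (0.70 on the log2 scale, SE 0.113, edgeR adjusted p = 0.0322).

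Of the 12 small-subunit factors 5 were called higher, and their median log2 fold change was 0.64. RRP5 (AT3G11964), needed for early cuts of the precursor RNA in yeast, had 58.6 and 57.8 CPM in ClpD-OE and 35.4 and 37.2 in WT, a 1.60-fold difference (0.68 on the log2 scale, SE 0.0831, edgeR adjusted p = 0.0232). ENP1 (AT1G31660), whose yeast counterpart joins the small subunit in the nucleolus, had 30.0 and 30.2 CPM in ClpD-OE and 17.1 and 18.3 in WT. It was 1.70-fold higher (0.77 on the log2 scale, SE 0.0999, edgeR adjusted p = 0.0243). These were the small-subunit genes with the smallest p-values, and their ClpD-OE replicates nearly coincided.

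RRP7 (AT5G38720), a factor of 18S RNA maturation, had 12.6 and 12.8 CPM in ClpD-OE and 6.15 and 7.65 in WT, and was 1.83-fold higher (log2 fold change 0.87, edgeR adjusted p = 0.0384). TOZ (AT5G16750), a WD-repeat protein of the U3 particle, had 21.1 and 19.1 CPM in ClpD-OE and 13.2 and 12.2 in WT (log2 fold change 0.66, edgeR adjusted p = 0.0395). RID2 (AT5G57280), a methyltransferase of precursor RNA processing, had 14.4 and 15.1 CPM in ClpD-OE and 8.17 and 9.88 in WT (log2 fold change 0.71, edgeR adjusted p = 0.0477). RID2 is the 1 called member that was not called without the filter on low counts (edgeR adjusted p = 0.0506). RH10 (AT5G60990), a DEAD-box helicase, had 19.7 and 20.2 CPM in ClpD-OE and 13.3 and 14.4 in WT, and its log2 fold change of 0.53 lay just outside the call (SE 0.109, edgeR adjusted p = 0.0502).

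The other 6 small-subunit factors were not called, with log2 fold changes between 0.26 and 0.85. They are SWA1, a U3 particle protein first known from slow growth of the female gametophyte, the helicase SWA3, NOF1, the Pumilio protein APUM23, the 18S RNA dimethyltransferase DIM1A and NOB1, the nuclease that trims the end of 18S RNA. SWA1 (AT2G47990) had 21.9 and 20.1 CPM in ClpD-OE and 9.76 and 13.5 in WT, and its log2 fold change of 0.85 came with the spread of its WT replicates (SE 0.18, edgeR adjusted p = 0.0533). DESeq2 called it (adjusted p = 0.00731). NOB1, APUM23 and DIM1A had the smallest log2 fold changes of this role, at 0.26, 0.30 and 0.37. SWA3 and SWA1 overlap genes on the opposite strand by 627 and 556 bases in TAIR10.1, and neither the labels nor the file headers say whether reads were counted by strand.

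Of the 10 large-subunit factors 8 were called higher, and their median log2 fold change was 0.80. PES, BOP1 and WDR12 form the PeBoW complex, which is required to process the precursor of 5.8S and 25S RNA, and all 3 were called. BOP1 had 76.8 and 75.3 CPM in ClpD-OE and 34.2 and 41.0 in WT, and was 2.02-fold higher (1.02 on the log2 scale, SE 0.112, edgeR adjusted p = 0.0197). WDR12 (AT5G15550) had 27.1 and 25.7 CPM in ClpD-OE and 14.4 and 16.1 in WT, a 1.73-fold difference (0.79 on the log2 scale, SE 0.113, edgeR adjusted p = 0.0271). PES (AT5G14520) had 65.2 and 57.6 CPM in ClpD-OE and 37.5 and 38.9 in WT, a 1.61-fold difference (0.68 on the log2 scale, SE 0.0983, edgeR adjusted p = 0.0272). Each gene of the complex had both ClpD-OE libraries well above both WT libraries, and the differences among the 3 fold changes were not tested.

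SWA2 (AT1G72440) and RBL (AT3G55510) encode homologs of the yeast NOC proteins, which accompany the large subunit out of the nucleolus. SWA2 had 52.2 and 53.1 CPM in ClpD-OE and 35.0 and 36.1 in WT (log2 fold change 0.57, edgeR adjusted p = 0.0275). RBL had 16.4 and 14.8 CPM in ClpD-OE and 9.60 and 8.38 in WT (log2 fold change 0.80, edgeR adjusted p = 0.0355). In RBL, TOZ and FIB1 WT replicate 1 lay above WT replicate 2, the reverse of the other 31 genes. APUM24 (AT3G16810), a Pumilio protein of precursor RNA processing, had 26.3 and 26.8 CPM in ClpD-OE and 14.1 and 16.3 in WT (log2 fold change 0.81, edgeR adjusted p = 0.0277). NSN1 (AT3G07050), a nucleolar GTPase related to animal nucleostemin, had 49.3 and 44.2 CPM in ClpD-OE and 22.5 and 28.7 in WT (log2 fold change 0.87, edgeR adjusted p = 0.0347).

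The paralogs BRX1-2 (AT1G52930) and BRX1-1 (AT3G15460) encode Brix-domain proteins of the large subunit. BRX1-2 had 21.8 and 15.7 CPM in ClpD-OE and 9.81 and 9.83 in WT, and was 1.91-fold higher (0.93 on the log2 scale, SE 0.188, edgeR adjusted p = 0.0477). Its ClpD-OE replicates lay far apart and its WT replicates coincided. BRX1-1 had 8.08 and 6.91 CPM in ClpD-OE and 4.51 and 5.23 in WT, and was not called (log2 fold change 0.62, SE 0.174, edgeR adjusted p = 0.0937). The coding sequences of the pair agree at 84.4% of aligned bases, and how reads were divided between such copies was not tested. BRX1-1 also overlaps AT3G15450 on the opposite strand by 41 bases, a gene with 10454 and 11138 counts in ClpD-OE and 3510 and 8546 in WT.

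NUG2, a GTPase of large-subunit assembly, stood apart from the rest of this role at 60.6 and 54.1 CPM in ClpD-OE and 47.8 and 51.1 in WT. Its log2 fold change was 0.21 (SE 0.0976, edgeR adjusted p = 0.228), and its promoter has 5 site II elements and a telo box. LSG1-2 (AT1G08410) and LSG1-1 (AT2G27200) encode GTPases whose yeast counterpart releases a nuclear export factor from the large subunit in the cytoplasm. LSG1-2 had 20.1 and 18.0 CPM in ClpD-OE and 11.2 and 14.2 in WT (log2 fold change 0.58, edgeR adjusted p = 0.0859). LSG1-1 had 9.12 and 11 CPM in ClpD-OE and 4.93 and 6.88 in WT (log2 fold change 0.77, edgeR adjusted p = 0.0917). Neither was called, and the coding sequences agree at 82.1% of aligned bases. MTR4, the helicase that feeds precursor RNA by-products to the exosome, had 31.5 and 30.4 CPM in ClpD-OE and 25.8 and 28.0 in WT, the smallest log2 fold change of the 34 (0.20, SE 0.0980, edgeR adjusted p = 0.247).

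**Figure D3:**
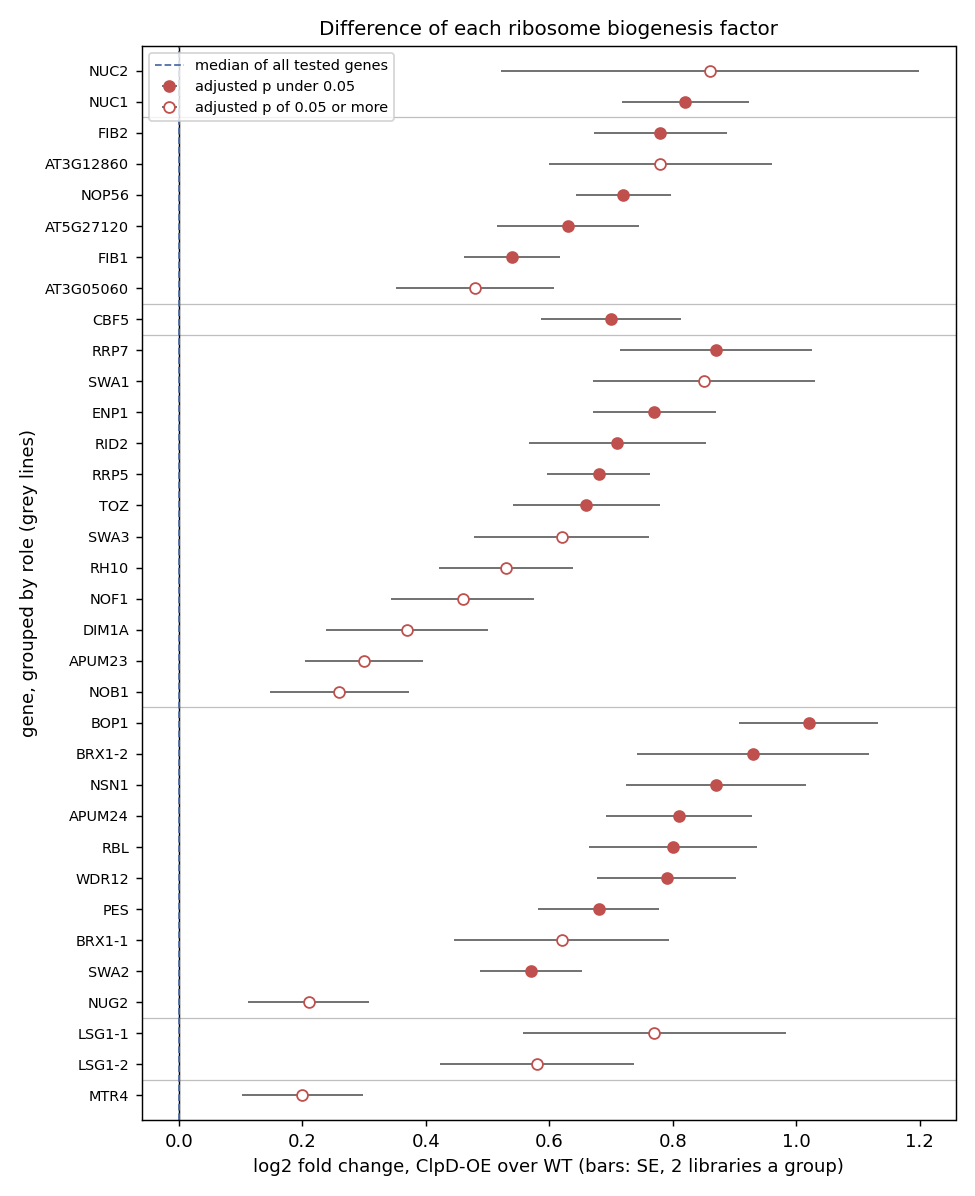
Log2 fold change of ClpD-OE over WT for each gene with its SE (bars, 2 libraries a group), grouped by role between grey lines; filled points have an edgeR adjusted p under 0.05 and open points do not. The values lie between 0.20 for MTR4 and 1.02 for BOP1, and all are right of the median of all tested genes, 0.001.

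The 15 genes that were not called had adjusted p-values from 0.0502 to 0.247 (edgeR), and 12 of them were higher at an unadjusted p under 0.05, where 14.2% of all tested genes, the called ones included, were. Their median level was 16.9 CPM over all libraries, against 34.7 CPM for the 19 called genes. A p that misses the threshold does not show that these genes were equal in both groups. Members with a telo box had a median log2 fold change of 0.74, with 12 of 18 called, and those without had a median of 0.60, with 7 of 16 called. For site II elements the medians were 0.67 with and 0.79 without, with 14 of 24 and 5 of 10 called, and these splits of the members were not tested.

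The spread between the WT libraries ran through the whole group. WT replicate 2 lay above WT replicate 1 in 31 of the 34 genes, by a median log2 difference of 0.18, where 49.7% of all tested genes did so. Between the ClpD-OE libraries the median was -0.05, and replicate 2 was the higher in 12 genes. Since the groups did not overlap in any of the 34, leaving out 1 library could hardly turn the direction of a member. Without WT replicate 1 all 34 log2 fold changes stayed above 0, between 0.15 and 0.93, but NUC1, NOP56 and BOP1 alone remained called (edgeR adjusted p = 0.0356, 0.0429 and 0.0326). The other 16 then had adjusted p-values from 0.0533 to 0.136. Over all genes tested, that fit called 206 higher (1.06%). Without WT replicate 2, 22 members were called, and 1179 of all genes tested (6.07%), more than the 812 with all libraries. AT5G27120, TOZ and BRX1-2 lost the call (adjusted p = 0.0521, 0.0584 and 0.0799), and AT3G05060, SWA1, SWA3, RH10, LSG1-2 and LSG1-1 gained it. With either ClpD-OE library left out, edgeR called 0 genes higher in the whole table (0%) and 0 lower. The log2 fold changes of the members then lay between 0.13 and 1.15, and the adjusted p of the 19 was between 0.17 and 0.249. DESeq2, run in addition, called 3, 12, 1 and 2 members without WT replicate 1, WT replicate 2, ClpD-OE replicate 1 and ClpD-OE replicate 2, and BOP1 was the 1 member called in all 4. Over all genes tested, DESeq2 then called 232 (1.25%), 626 (3.35%), 140 (0.74%) and 120 (0.648%) higher in the same order. Where a group has 1 library left, that library is assumed to vary like those of the other group.

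**Figure D4:**
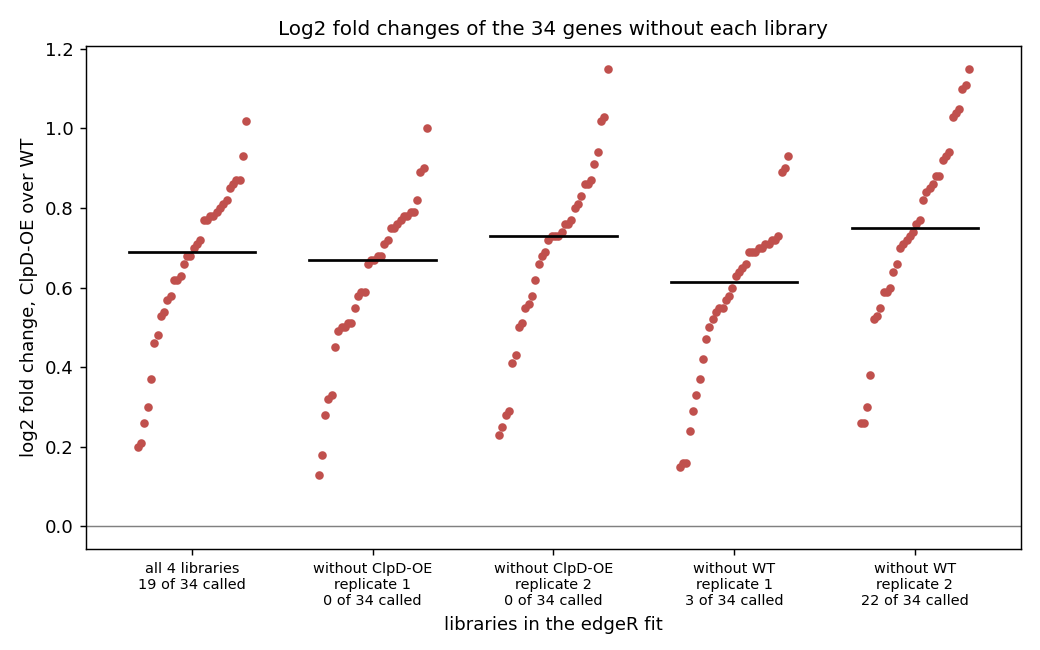
Log2 fold changes of the 34 genes, ClpD-OE over WT, in the edgeR fit of all 4 libraries and in fits without each library; points are genes sorted by value, black lines are medians, and the number called is under each fit. The medians lie between 0.61 and 0.75 in the fits without 1 library, while the number called lies between 0 and 22.

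Scaling bears on the size of the shift. Scaled to library totals in place of TMM factors, the median log2 fold change of all tested genes moved to 0.22, and 2699 genes were called higher and 577 lower, against 812 higher and 740 lower with TMM. The member median was then 0.92, which is 0.69 above the median of all genes, and 31 members were called higher. All 34 also lay above the shifted median of all genes. In the authors' deposited table, the log2 fold changes, which are ratios of mean FPKM, ran from 0.43 to 1.24 with a median of 0.92 over the 34 genes, beside a median of 0.23 over the genes tested here. That table has 20 of the 34 higher at an adjusted p under 0.05, where 2.96% of its loci are, and its calls hold the 19 of edgeR and SWA1.

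Other genes of the pathway were read from 7 lists of known factors. Of their 89 tested genes 37 were called higher and 0 lower by edgeR, 82 had a log2 fold change above 0, and the median was 0.51. Over all tested genes, 4.29% were called higher, 3.91% were called lower and 50.1% had a log2 fold change above 0. DESeq2 called 1 of the 89 lower. Among RNA polymerase I genes 3 of 7 were called higher. The largest subunits, NRPA1 and NRPA2, were 1.77-fold and 1.86-fold higher (edgeR adjusted p = 0.0232 and 0.0366), and RPAC42 was 1.75-fold higher (adjusted p = 0.0448). Among other proteins of small nucleolar RNA particles 3 of 7 were called higher, with GAR1 of the H/ACA particle at 1.67-fold and the L7Ae-family genes AT4G12600 and AT5G20160 at 1.79-fold and 1.49-fold (edgeR adjusted p = 0.0263, 0.0261 and 0.0444). Of 16 further small-subunit factors 9 were called, with PWP2 at 2.05-fold, SOF1 at 1.81-fold and AT1G06720, annotated as a nucleoside triphosphate hydrolase, at 1.91-fold (edgeR adjusted p = 0.0258, 0.0258 and 0.0218).

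Of 22 further large-subunit factors 14 were called higher. MDN1, the giant ATPase midasin that remodels the large subunit, had 1574 and 1326 counts in ClpD-OE and 421 and 475 in WT. It was 2.57-fold higher (log2 fold change 1.36, edgeR adjusted p = 0.0188), beyond the largest fold change among the 34, that of BOP1. AT4G26600, annotated as a methyltransferase, was 2.41-fold higher and SPB1, a methyltransferase of the FtsJ family, 1.95-fold higher (edgeR adjusted p = 0.0190 and 0.0188). Of 12 DEAD-box helicase genes 6 were called higher, with AT3G18600, AT4G16630 and AT1G77030 between 1.81-fold and 1.98-fold. Among the exosome and exoribonuclease genes 1 of 15 was called higher, AT3G07750 at 2.03-fold (edgeR adjusted p = 0.0403), with a list median of 0.31. Of the 15, 14 had a log2 fold change above 0, where 50.1% of all tested genes did. Over all tested genes 4.29% were called higher.

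Of 10 regulators of growth and of nucleolar stress, edgeR called 1 higher and 0 lower, at a median log2 fold change of -0.00. DESeq2 called 2 higher, HD2A and HD2B, and 1 lower, S6K1. The gene called by edgeR was HD2A (AT3G44750), a nucleolar histone deacetylase that acts on ribosomal RNA genes, at 1.91-fold (log2 fold change 0.94, edgeR adjusted p = 0.0263). HD2B had a log2 fold change of 0.49 and missed the threshold (edgeR adjusted p = 0.0504). TOR, the growth kinase, had 1755 and 1781 counts in ClpD-OE and 1220 and 1441 in WT, with a log2 fold change of 0.08 (edgeR adjusted p = 0.587). S6K1, a kinase downstream of TOR, had 1019 and 902 counts in ClpD-OE and 1335 and 1075 in WT, with a log2 fold change of -0.67 (edgeR adjusted p = 0.0727). ANAC082, a mediator of the nucleolar stress response, had a log2 fold change of -0.05 (edgeR adjusted p = 0.752).

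Of 262 tested genes annotated as ribosomal proteins 19 were called higher and 2 lower, with a median log2 fold change of 0.20. Of the 262, 229 had a log2 fold change above 0, where 50.1% of all tested genes did. This broad list also holds L7Ae-family genes such as AT4G12600, which stands among the small nucleolar RNA particle proteins above. The 3 genes of smallest p on it were AT3G58660, AT2G42710 and AT4G12600 at 2.03-fold, 1.81-fold and 1.79-fold. Of the 134 whose RefSeq note places the product in the cytosolic ribosome, 5 were called higher and 0 lower, with the same median of 0.20. That share called higher is near the 4.29% of all tested genes. The direction was more uniform, with 129 of the 134 above 0 on the log2 scale, where 50.1% of all tested genes were. In 117 of the 134 both ClpD-OE libraries lay above both WT libraries, where 30.5% of all tested genes had that arrangement. Among the 134, AT5G09510 and AT4G13170 were 1.37-fold and 1.40-fold higher (edgeR adjusted p = 0.0376 and 0.0391). AT5G15750, annotated as a protein of the S4 family and counted among the small-subunit factors above, was 1.65-fold higher (edgeR adjusted p = 0.0342). Of 44 genes picked by the words nucleolar or rRNA processing in their annotation 12 were called higher and 0 lower, with a median of 0.36. These included AT1G02870, AT1G63810 and the nucleolar GTP-binding protein gene AT1G50920, at 1.99-fold, 1.86-fold and 1.52-fold.

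**Figure D5:**
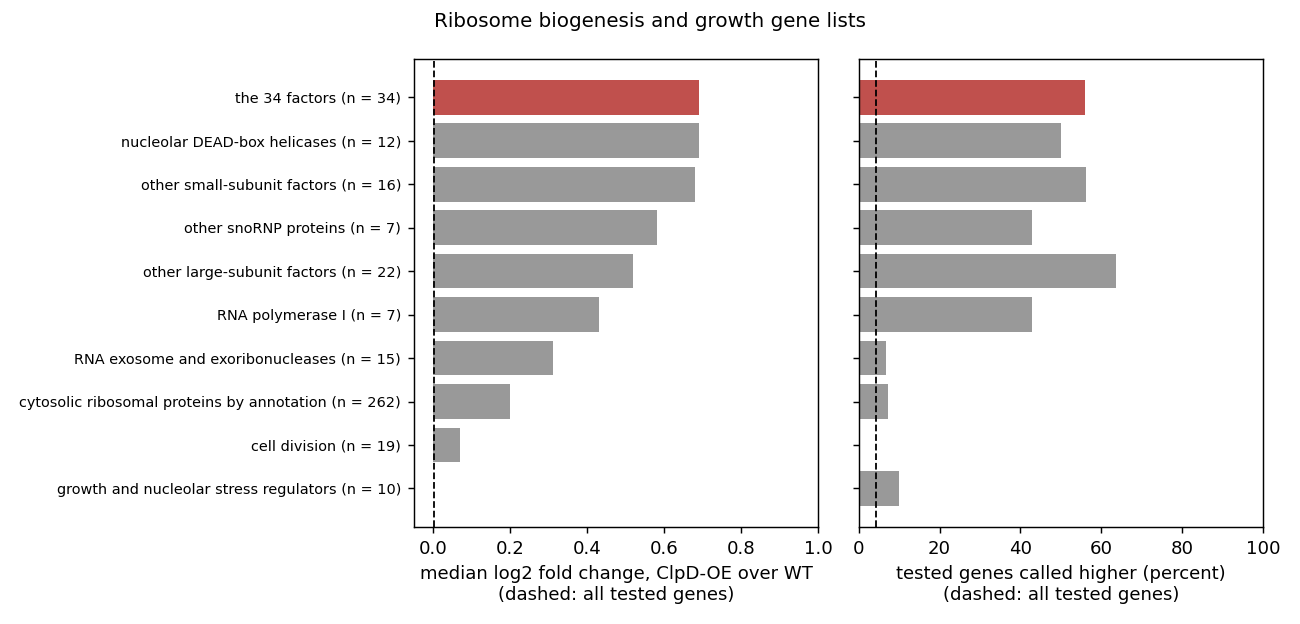
Median log2 fold change of ClpD-OE over WT (left) and percent of tested genes called higher by edgeR (right) for the 34 factors (red) and other gene lists (grey), with the number tested in parentheses; dashed lines are the median and the percent called higher over all tested genes, 0.001 and 4.29%. The lists of RNA polymerase I, snoRNP proteins, subunit factors and DEAD-box helicases have medians of 0.43 to 0.69, the exosome list 0.31, the ribosomal proteins 0.20, the cell division genes 0.07 and the regulators -0.00.

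Markers of dividing cells and of single organs were set beside these results, because ribosome biogenesis genes are most active in dividing tissue. Of 19 cell division genes edgeR and DESeq2 each called 0, 1 had an unadjusted p under 0.05 in edgeR, and the list had a median log2 fold change of 0.07. Their summed level was 415 and 421 CPM in ClpD-OE and 372 and 415 CPM in WT. RNR1, a subunit of ribonucleotide reductase, had the largest log2 fold change among them (0.41, edgeR adjusted p = 0.0755), below the median of the 34 factors. STM, a marker of the shoot meristem, had 3.76 and 2.99 CPM in ClpD-OE and 4.3 and 3.54 CPM in WT (log2 fold change -0.21, edgeR adjusted p = 0.581).

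Of 10 organ markers 6 were tested. PIN2, an auxin carrier gene of the root tip, had 27 and 29 counts in ClpD-OE and 2 and 4 in WT (log2 fold change 2.85, SE 0.483, edgeR adjusted p = 0.0349). PLT1 and PLT2, which mark the root meristem, had 3 and 4 and 1 and 4 counts in ClpD-OE and were at 0 in both WT libraries, too low to be tested. PYK10, a glucosidase gene of the root, did not follow them, at 31371 and 31823 counts in ClpD-OE and 23030 and 27623 in WT (log2 fold change -0.01, edgeR adjusted p = 0.945). NRT2.1, a nitrate transporter gene of the root, had 9 and 27 counts in ClpD-OE and 25 and 28 in WT (log2 fold change -0.88, edgeR adjusted p = 0.35). The leaf markers LHCB1.3 and RBCS1A, genes of the light-harvesting complex and of Rubisco, had log2 fold changes of -0.64 and -0.39 (edgeR adjusted p = 0.0193 and 0.0378). Of the seed storage genes, CRA1 had 3 and 2 counts in ClpD-OE and 5 and 9 in WT, and CRU3 was at 0 in all libraries. The part of the root tip and leaf markers in the differences of the 34 genes was not tested.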

How the data were processed

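The authors deposited 1 table with estimated counts and FPKM per gene and library, and their log2 fold changes, p-values and adjusted p-values, per the file headers. The counts are whole and not normalized. The submitters' processing notes name RSEM, DESeq2, HISAT2, StringTie 1.3.1, Bowtie2 2.2.8 and fastp 0.18.0 on TAIR10, with no role or order. Groups follow the genotype labels. Replicates differed by more than sampling noise (chi-square per degree of freedom 10.2 in ClpD-OE, 18.6 in WT).

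The test was that of edgeR 4.0.16 under R 4.3.3 (TMM, filterByExpr, quasi-likelihood at defaults, genotype only), with Benjamini-Hochberg adjustment over 18940 genes. The SE is the log2 fold change divided by the square root of F. CPM use TMM-scaled library sizes. TMM factors were 1.074 and 1.088 in ClpD-OE and 0.907 and 0.943 in WT. Shares of counts have exact 95% binomial intervals, which cover counting error only.

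The 34 genes and all lists were chosen with earlier results of these data known. Full values are given for called members, both copies of each paralog pair and the uncalled member with the smallest p. From each list the 3 called genes with the smallest p are named. SWA1, NUG2 and MTR4, the regulators, RNR1 and the markers are also named, chosen after their values were seen. Names follow the RefSeq annotation of TAIR10.1, in which all 31346 loci were found. Its coordinates and sequences are used here because the deposited table gives none.

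Alternatives were DESeq2 size factors, library totals, other filters, DESeq2 1.42.0, the newer quasi-likelihood fit, the replicate block, each library left out and a shorter promoter window. DESeq2 without each library and the cytosolic list were added after seeing the data.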

Additional observations from a re-analysis of the deposited data

How the results depend on the processing

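With 2 libraries a group, calls rest on single libraries. Both ClpD-OE libraries lay above both WT libraries in all 34 members, so a fit without 1 library could hardly turn a direction. In all 15 alternatives every member had a log2 fold change above 0 and 0 were called lower. DESeq2 size factors, the other filters, DESeq2 and the newer fit gave 18 to 20 members called higher, and 18 of the 19 were called in each of these and with library totals. With library totals 31 members, 2699 of all genes, 67 other pathway genes, 161 ribosomal protein genes, 19 genes annotated as nucleolar and 1 cell division gene were called higher, and the member median was 0.92. Without 1 library (edgeR and DESeq2) the ranges were 0 to 22 members, 0 to 1179 genes higher and 0 to 1602 lower, 0 to 38 other pathway genes higher and 0 to 1 lower, 0 to 18 ribosomal protein genes higher and 0 to 3 lower, 0 to 12 annotated nucleolar genes higher and 0 to 1 lower, and 0 to 1 cell division genes. DESeq2 without WT replicate 1, ClpD-OE replicate 1 or ClpD-OE replicate 2 called 232, 140 or 120 genes higher and 305, 414 or 221 lower, and 23 other pathway genes higher without WT replicate 2. The member median was then 0.61 to 0.75, and the log2 fold change of CLPD 3.48 to 3.65. DESeq2 called 1217 genes lower, and 1 other pathway gene and 1 annotated nucleolar gene lower. With the replicate number as a replicate block, a pairing the labels do not state, 27 members, 1628 genes higher and 1885 lower, 41 ribosomal protein genes higher and 4 lower, 1 cell division gene higher, and 1 other pathway and 1 annotated nucleolar gene lower were called. Deviations of same-numbered replicates had a Pearson r of 0.265 across 18940 genes. The cytosolic list alone gave 5 higher and 0 lower. With 250 bases before the gene start only, 17.6% of members had a telo box and 14.7% both motifs. The cause was not tested.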

Other observations

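The promoter motifs of the 34 genes were also read in the genes outside the group. Among tested genes that are neither members nor on any pathway, ribosomal or nucleolar list, 357 had both a telo box and a site II element, and 10.1% of them were called higher and 1.12% lower by edgeR. Of the 13202 such genes with neither motif, 3.45% were called higher and 4.42% lower. The median log2 fold change was 0.16 with both motifs and -0.03 with neither, far below the 0.69 of the ribosome biogenesis factors. With a telo box, whatever else the promoter held, 10.1% of 905 genes were called higher, and with a site II element 4.70% of 4641. This comparison was added after seeing the data and is a description without a test, since genes are not replicates. Among the 34 members the median was 0.70 for the 15 with both motifs, 10 of them called. It was 0.77 for the 7 with neither, 3 of them called, and this split was not tested either.

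Among the 6 paralog pairs, BRX1-2 made up 72.5% and 68.8% of its pair's FPKM in ClpD-OE and 67.9% and 64.7% in WT, so that the groups did not overlap. FIB1 made up a smaller share of its pair in both ClpD-OE libraries than in either WT library, as given above. In all the other pairs the groups overlapped. LSG1-2 made up 68.6% and 61.7% of its pair in ClpD-OE and 69.1% and 67.1% in WT. NUC1 made up 99.57% and 99.65% in ClpD-OE and 99.66% and 99.59% in WT. NOP56 made up 95.63% and 95.46% in ClpD-OE and 95.9% and 95.55% in WT. AT5G27120 made up 50.5% and 47.3% in ClpD-OE and 48.6% and 44.4% in WT. With 2 libraries a group an exact permutation test of a share cannot reach a p of 0.05, and none was run. The shares of BRX1-2 and FIB1 are therefore a description, and a shift between the copies was not tested.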
